A study of Mus musculus with 6 samples.

Results

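Expression of the Toll-like receptors *Tlr1* to *Tlr9* and of *Cd14* was compared between livers of WT and *Fmo5*-/- mice. The 10 genes were taken by symbol from the deposited gene table, which lists 54446 genes, and their read counts were matched by gene identifier. All 10 were among the 16734 genes that had enough counts to be tested. RNA was sequenced from whole liver of 3 WT and 3 *Fmo5*-/- mice, with 1 library per mouse. WT mice carried an intact *Fmo5* gene, and *Fmo5*-/- mice carried a disruption of it in every tissue. Mice of both genotypes were males on a C57BL/6 background (C57BL/6J in the study's methods), were 32 weeks old, received a standard chow diet and no treatment, and were kept in adjacent cages. How the mice were divided among litters, cages and days of extraction is not given in the sources used here, and p-values measure the spread between these mice only. The counts are those of whole tissue, so that more cells of a type and more RNA per cell cannot be told apart.

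Toll-like receptors are membrane proteins with an outer domain of leucine-rich repeats that binds microbial molecules and an inner domain that recruits adaptor proteins. TLR2, paired with TLR1 or TLR6, binds bacterial lipopeptides, TLR4 binds lipopolysaccharide and TLR5 binds flagellin at the cell surface, whereas TLR3, TLR7, TLR8 and TLR9 bind nucleic acids inside endosomes. CD14 is a lipopolysaccharide-binding protein that passes its ligand to TLR4 and also serves other receptors of the family. The adaptor MYD88, or TICAM1 in the case of TLR3, leads to NF-kappaB and interferon regulatory factors. In liver, Kupffer cells, the resident macrophages that face blood from the gut, are known for their use of these receptors.

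The libraries held between 44886286 and 52338675 counts on genes. Other measures of the libraries moved with genotype and did not overlap. Reads that mapped to several places made up 11.8 to 13.1% in WT and 10.4 to 11.5% in *Fmo5*-/- mice, unmapped reads 9.72 to 10.1% and 9.10 to 9.20%, and reads shared by overlapping genes 3.52 to 3.62% and 3.72 to 3.98%, and the TMM scaling factors were 0.956 to 0.975 and 1.00 to 1.08. Reads outside genes made up 8.63 and 8.28% in the second and the third *Fmo5*-/- mouse and 6.86 to 7.02% in the other 4 mice. The part of these measures in the results was not tested. *Fmo5* itself gave 39807, 37405 and 30240 normalized counts in the WT mice and 1071, 1102 and 1194 in the *Fmo5*-/- mice, far apart, with a log2 fold change of -5.00 (SE 0.14, adjusted p = 2.80e-07). Here a normalized count is a read count divided by the effective size of its library and multiplied by the mean effective size, on which scale 3 counts correspond to between 2.75 and 3.35. Of 8 hepatocyte markers 7 overlapped between genotypes and none passed in edgeR or DESeq2, with log2 fold changes from -0.34 to 0.17 and 1 at an unadjusted p under 0.05. That marker was *Apob*, an apolipoprotein, whose values were lower in each *Fmo5*-/- mouse than in any WT mouse (adjusted p = 0.187). Of all 16734 genes tested, 2325 lay above WT and 2253 below it without overlap, and 21.8% had an unadjusted p under 0.05. DESeq2 called 8.96% of all genes. Over all genes tested, 229 passed an adjusted p of 0.05 in edgeR's quasi-likelihood test, which is 1.37% of them, with 113 higher (0.675%) and 116 lower in *Fmo5*-/- mice.

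Promoters are shown for 3 receptors, *Tlr2*, *Tlr8* and *Tlr5*, which had the smallest p, the next smallest p and the only negative log2 fold change of the 10 genes. The RefSeq windows run from 250 bases before to 50 bases after an annotated start on GRCm38.p6 and are written 5′ to 3′ along the gene. Windows of 7 of the 10 members, 9 windows in all, were used here. Capitals mark matches, on either strand, to GAAANNGAA (the core of the interferon-stimulated response element), TTCNNNGAA (STAT factors), GGGANTTTC (a core of NF-kappaB sites) and GAGGAAGT (PU.1, a factor of myeloid cells). They also mark matches to GGGAATTCC (an NF-kappaB form, added to the search after the *Tlr2* window had been read).
Tlr2 (chr3:83841559-83841858, minus strand): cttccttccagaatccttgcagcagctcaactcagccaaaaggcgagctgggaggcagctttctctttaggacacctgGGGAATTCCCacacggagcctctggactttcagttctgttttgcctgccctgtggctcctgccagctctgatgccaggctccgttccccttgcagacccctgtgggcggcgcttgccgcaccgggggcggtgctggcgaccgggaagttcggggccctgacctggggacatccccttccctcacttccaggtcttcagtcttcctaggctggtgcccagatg
Tlr8 (chrX:167264280-167264579, minus strand): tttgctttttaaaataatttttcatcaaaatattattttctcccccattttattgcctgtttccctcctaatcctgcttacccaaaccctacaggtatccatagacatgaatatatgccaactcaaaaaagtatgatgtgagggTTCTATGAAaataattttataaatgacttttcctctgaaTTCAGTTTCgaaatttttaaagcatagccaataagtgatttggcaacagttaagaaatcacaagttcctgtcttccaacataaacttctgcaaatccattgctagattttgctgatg
Tlr5 (chr1:182954538-182954837, plus strand): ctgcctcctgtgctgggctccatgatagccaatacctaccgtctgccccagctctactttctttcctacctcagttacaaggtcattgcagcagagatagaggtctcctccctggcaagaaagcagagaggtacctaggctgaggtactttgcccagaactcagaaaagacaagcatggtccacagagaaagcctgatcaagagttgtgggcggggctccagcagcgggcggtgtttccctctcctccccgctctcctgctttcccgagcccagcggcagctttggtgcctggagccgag

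The *Tlr2* window held GGGAATTCC, which begins 172 bases before the start and matches on both strands with a shift of 1 base, and none of the other 4 motifs. GGGAATTCC was present, on either strand, in 74 of 32851 promoter windows of the same length, or 0.225%. The *Tlr8* window held a STAT match, TTCTATGAA, 106 bases before the start, and a match to the interferon element core on the other strand, TTCAGTTTC, 67 bases before it. These motifs were present in 8.30% and 8.56% of all windows, respectively. The *Tlr5* window held no match to the 5 motifs. Among the other members, the window of *Tlr3* held GGGAGTTTC, a form of the NF-kappaB core found in 1.11% of all windows, those of *Tlr1* and *Tlr9* held a PU.1 match (3.20% of all windows), the other window of *Tlr1* held a STAT match, TTCATCGAA, 228 bases before its start, and *Tlr6* held a pair of overlapping interferon element cores in one window and STAT matches in the other. The matches describe letters in these windows, and binding was not measured.

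Expression of *Tlr2* was higher in *Fmo5*-/- mice, and it was the only member of 10 to pass the test across all genes. The remaining 9 did not pass, although 9 of 10 members, *Tlr2* included, had a positive log2 fold change, against 50.8% of all genes tested. The median log2 fold change of the 10 was 0.77, against 0.01 over all genes. At an unadjusted p of 0.05, 6 of 10 members passed (60.0%), against 21.8% of all genes. In 5 members, *Tlr2*, *Tlr4*, *Tlr8*, *Tlr9* and *Cd14*, every *Fmo5*-/- mouse was above every WT mouse, a pattern found in 13.9% of all genes tested. No member had every *Fmo5*-/- mouse below every WT mouse, as 2253 of all 16734 genes tested did.

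**Figure D1:**
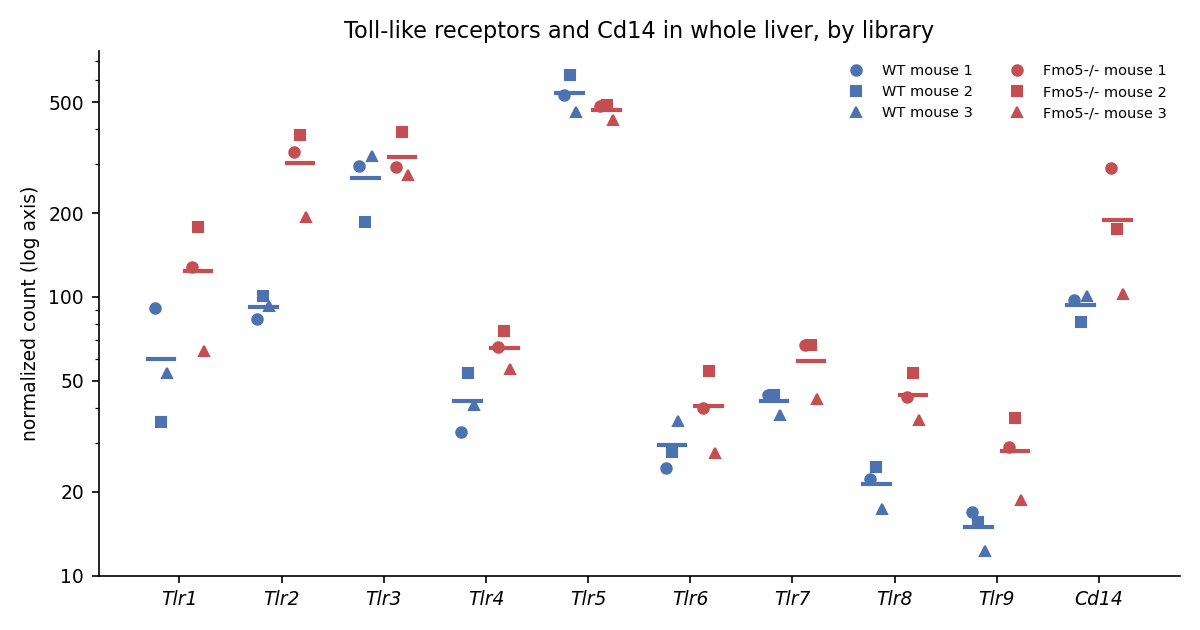
Normalized count of each member (log axis) in the 3 WT mice (blue) and the 3 Fmo5-/- mice (red), with a marker for each mouse and a bar at the mean of each genotype. The Tlr2 points of the genotypes lie apart, between 83.7 and 100.4 in WT and between 193 and 381 in Fmo5-/- mice, and the triangle of the third Fmo5-/- mouse is the lowest red point for all 10 genes.

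Among the receptors of the cell surface, *Tlr2* (chr3:83836272-83841767, minus strand) gave 83.7, 100.4 and 93.0 normalized counts in the WT mice and 333, 381 and 193 in the *Fmo5*-/- mice. The lowest *Fmo5*-/- mouse was above the highest WT mouse, and the WT mice were close together whereas the third *Fmo5*-/- mouse stood well below the other two. The mean was 92.4 ± 8.40 (SD, n = 3) in WT and 302.3 ± 97.4 (SD, n = 3) in *Fmo5*-/- mice, a log2 fold change of 1.71 (SE 0.25, 95% confidence interval 1.15 to 2.27), equal to 3.27-fold, with an adjusted p of 0.0208. *Tlr2* was at place 30 by p among the 113 genes called higher and at place 59 among all genes tested, and 66 genes had a larger log2 fold change. The direction was kept when any 1 mouse was left out, with log2 fold changes from 1.51 to 1.95. The adjusted p stayed below 0.05 without the second *Fmo5*-/- mouse (0.0363) or the third (0.00106), but not without the first *Fmo5*-/- mouse (0.0930) or without the first (0.0809), the second (0.05004) or the third (0.0544) WT mouse.

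The partners of TLR2 gave lower mean counts than *Tlr2*. *Tlr1* (chr5:64924679-64933563) gave 91.1, 35.7 and 53.2 normalized counts in WT and 128, 179 and 63.8 in *Fmo5*-/- mice. The third *Fmo5*-/- mouse fell below the first WT mouse, so that the genotypes overlapped. This gave a log2 fold change of 1.04 (SE 0.44, 95% confidence interval 0.016 to 2.06, adjusted p = 0.223). *Tlr6* (chr5:64952031-64960097), the neighbouring gene, gave 24.4, 27.9 and 35.8 in WT and 40.1, 54.2 and 27.5 in *Fmo5*-/- mice, again with overlap through the third *Fmo5*-/- mouse. Its log2 fold change was 0.47 (SE 0.31, 95% confidence interval -0.23 to 1.16, adjusted p = 0.417). The transcripts of these 2 genes share sequence. Of all stretches of 75 bases, the read length, 10.6% of those of *Tlr1* and 9.25% of those of *Tlr6* also occurred in another gene, nearly always in each other, and reads from these stretches could not be assigned to either.

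*Tlr4* (chr4:66827584-66930284), the lipopolysaccharide receptor, gave 32.8, 53.6 and 40.9 normalized counts in WT and 66.1, 75.3 and 55.0 in *Fmo5*-/- mice. The genotypes did not overlap, but the third *Fmo5*-/- mouse was only just above the second WT mouse. In the fit *Tlr4* had a log2 fold change of 0.63 (SE 0.25, 95% confidence interval 0.062 to 1.19, adjusted p = 0.189). *Cd14*, whose product hands lipopolysaccharide to TLR4, gave 97.4, 81.5 and 101.2 in WT and 291, 175 and 102.1 in *Fmo5*-/- mice. Here too there was no overlap, though the third *Fmo5*-/- mouse was level with the highest WT mouse and the first was far above the rest. The log2 fold change of *Cd14* was 1.02 (SE 0.35, 95% confidence interval 0.22 to 1.82, adjusted p = 0.143). The value of *Cd14* moved most without the first *Fmo5*-/- mouse, when the log2 fold change was 0.57 (adjusted p = 0.289). Without the third it was 1.31 (adjusted p = 0.0208), the one fit of 6 with a mouse left out in which *Cd14* passed.

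*Tlr5* (chr1:182954788-182976044), the flagellin receptor, was the one member with a negative log2 fold change. It gave 532, 628 and 461 normalized counts in WT and 486, 490 and 432 in *Fmo5*-/- mice. The genotypes overlapped, and the *Fmo5*-/- mice lay close together. In the fit its log2 fold change was -0.20 (SE 0.13, 95% confidence interval -0.49 to 0.088, adjusted p = 0.400). The interval leaves out any rise above 0.088 on the log2 scale.

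Of the 4 receptors of endosomes, *Tlr7*, *Tlr8* and *Tlr9* gave small counts. *Tlr8* (chrX:167242696-167264329) gave 22.2, 24.5 and 17.4 normalized counts in WT and 43.8, 53.2 and 36.3 in *Fmo5*-/- mice, without overlap. Each WT mouse was well below the lowest *Fmo5*-/- mouse, but the counts behind these values were between 17 and 58. The log2 fold change was 1.06 (SE 0.27, 95% confidence interval 0.45 to 1.66), and the adjusted p of 0.0762 was the second lowest of the members. *Tlr7* (chrX:167304929-167330558), next to it on the chromosome, gave 44.5, 44.6 and 37.8 in WT and 67.1, 67.0 and 43.2 in *Fmo5*-/- mice, and the third *Fmo5*-/- mouse lay within the WT range. Its log2 fold change was 0.48 (SE 0.25, 95% confidence interval -0.074 to 1.04, adjusted p = 0.297).

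*Tlr9* (chr9:106222598-106226883), which binds unmethylated CpG DNA, was the lowest of the members. It gave 16.9, 15.6 and 12.3 normalized counts in WT and 28.9, 36.7 and 18.7 in *Fmo5*-/- mice, without overlap. This corresponded to a log2 fold change of 0.91 (SE 0.33, 95% confidence interval 0.16 to 1.66, adjusted p = 0.157). *Tlr3* (chr8:45395665-45411080), which binds double-stranded RNA, gave 294, 185 and 321 in WT and 292, 390 and 275 in *Fmo5*-/- mice. The genotypes overlapped widely, and the log2 fold change was 0.26 (SE 0.22, 95% confidence interval -0.24 to 0.76, adjusted p = 0.545). An antisense gene, *Gm45542*, overlaps 381 bases (7.32%) of the *Tlr3* exons, and reads of this pair cannot be told apart in libraries that carry no strand.

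**Figure D2:**
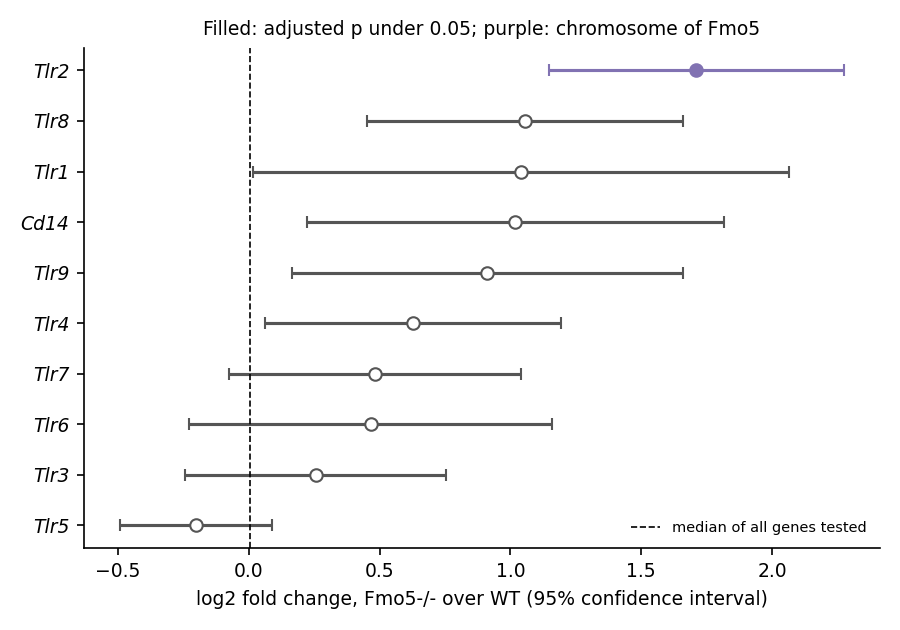
Log2 fold change (Fmo5-/- over WT) of the 10 members with 95% confidence intervals from the edgeR fit of 3 against 3 mice. A filled symbol marks an adjusted p under 0.05, purple marks the receptor on the chromosome of Fmo5, and the dashed line is the median of all genes tested. Only Tlr2, at 1.71, is filled, and the interval of Tlr5, from -0.49 to 0.088, lies lowest.

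All 10 members, *Tlr5* included, were lowest among the *Fmo5*-/- mice in the third mouse, as were 32.8% of all genes tested. The second *Fmo5*-/- mouse was the highest for 8 members and the first for 2, as were 35.6% of all genes tested in each case.

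Levels were compared between genes as RPKM, the reads per kilobase of exon scaled to the library, a scale that takes account of length. In WT mice *Tlr5* stood first at 2.31 ± 0.36 (SD, n = 3), above all others without overlap. *Cd14* (1.17 ± 0.13) and *Tlr3* (1.05 ± 0.28) followed and overlapped each other. *Tlr2* was next at 0.628 ± 0.057, below *Tlr3* and above *Tlr1* (0.367 ± 0.17), in both cases without overlap. From *Tlr1* down through *Tlr7*, *Tlr6*, *Tlr4*, *Tlr8* and *Tlr9* each gene overlapped the next, and *Tlr9* was at 0.0880 ± 0.014. The order was different in *Fmo5*-/- mice, in which *Cd14* (2.36 ± 1.19), *Tlr2* (2.05 ± 0.66) and *Tlr5* (2.01 ± 0.14) overlapped at the top. The exon length of *Cd14* was that of its longest annotated transcript, and those of the other members were merged exons.

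*Tlr2* lies on chromosome 3, 13.8 Mb from *Fmo5* (chr3:97628804-97655282), and the other 8 Toll-like receptors lie on other chromosomes. None of the 8 passed the test in edgeR or DESeq2, and 4 had an unadjusted p under 0.05 (21.8% of all genes). Of their log2 fold changes 7 of 8 were positive (50.8% of all genes), with a median of 0.56 and a range from -0.20 to 1.06. The log2 fold change of *Tlr2* exceeded that median by 1.15. Within each library, the log2 normalized count of *Tlr2* minus the mean log2 normalized count of the 8 others was 0.46, 0.83 and 0.74 in WT and 1.90, 1.82 and 1.56 in *Fmo5*-/- mice. The genotypes did not overlap on this difference, and the third *Fmo5*-/- mouse was near the other two.

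The genes next to *Tlr2* were examined for the same reason. Of 13 tested genes that start within 1 Mb of it, 0 were called by edgeR (1.37% of all genes) and 0 by DESeq2 (8.96% of all genes). An unadjusted p under 0.05 was found for 3 (21.8% of all genes), and 4 had a positive log2 fold change (50.8% of all genes). Positive values were found for *Rbm46* (0.61), *Trim2* (0.04), *Fhdc1* (0.32) and *Tmem154* (0.96, adjusted p = 0.190). The fibrinogen genes *Fga*, *Fgb* and *Fgg*, which are strongly expressed by hepatocytes, had log2 fold changes of -0.03, -0.07 and -0.04. *Lrat* (-0.24), *Plrg1* (-0.06), *Tmem131l* (-0.33), *Mnd1* (-0.39), *Arfip1* (-0.37) and *Fbxw7* (-0.03) were also below 0, and the median of the 13 was -0.04. Of the 241 tested genes between *Tlr2* and *Fmo5*, 7 were called higher and 2 lower, against 113 higher (0.675%) and 116 lower of all 16734 genes.

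**Figure D3:**
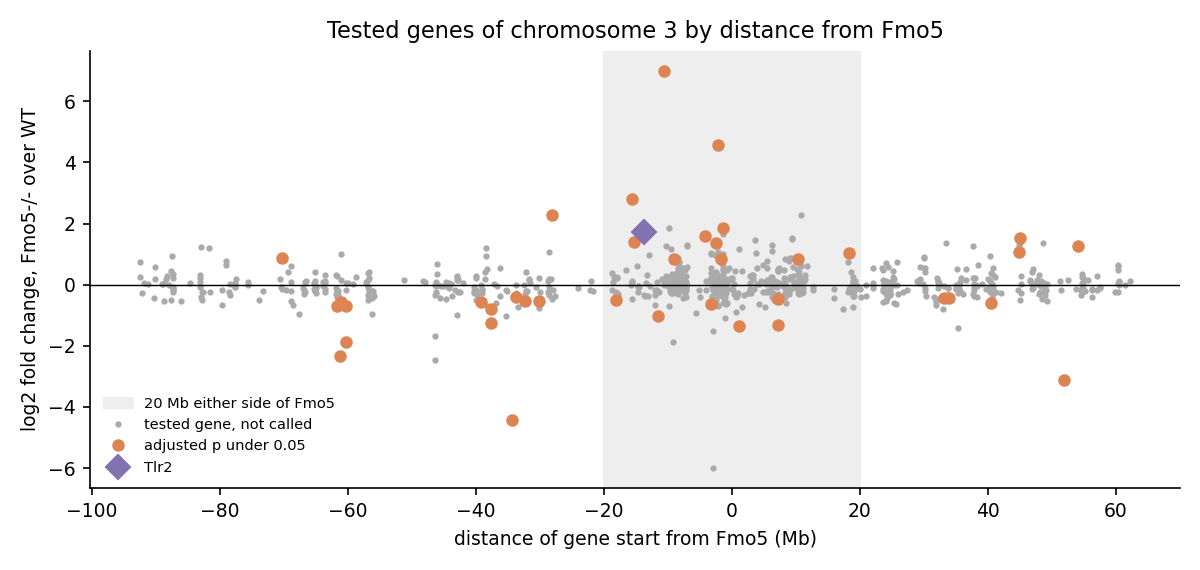
Log2 fold change (Fmo5-/- over WT) of tested genes of chromosome 3 against the distance of their start from Fmo5 in Mb, with Fmo5 itself left out. Orange marks an adjusted p under 0.05, the purple diamond is Tlr2 and the grey band spans 20 Mb on either side. Called genes (18 in the band and 21 outside it) are spread along the chromosome.

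Within 20 Mb of *Fmo5*, 18 of 427 tested genes were called (4.22%), 12 of them higher, *Tlr2* among these. On the rest of chromosome 3, 21 of 437 were called (4.81%), 5 of them higher. On other chromosomes 178 of 15058 were called (1.18%). The share was thus higher on both parts of chromosome 3 than elsewhere. The part of the chromosome in the value of *Tlr2* was not tested, and with 1 disrupted line the place of *Tlr2* on this chromosome and the loss of *Fmo5* cannot be told apart.

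The summed count of macrophage markers was higher in *Fmo5*-/- mice as well. The 12 markers of Kupffer cells and macrophages summed to 15251, 15999 and 13513 normalized counts in WT and 37120, 38524 and 21077 in *Fmo5*-/- mice, a ratio of 2.16. The genotypes did not overlap, and the third *Fmo5*-/- mouse was again the lowest of its genotype. For this sum the exact permutation p was 0.1, the smallest that 3 against 3 mice allow. All 12 markers had a positive log2 fold change (50.8% of all genes), and 11 were above WT without overlap (13.9% of all genes). An unadjusted p under 0.05 was found for 12 (21.8% of all genes), and DESeq2 called 11 (8.96% of all genes). The same shares of all genes apply to the marker counts of other cells below. In edgeR 1 of the 12 was called, against 1.37% of all genes. That marker was *Clec4f*, a lectin of Kupffer cells, which rose with a log2 fold change of 0.70 (SE 0.11, adjusted p = 0.0275) and, with 1 mouse left out, passed only without the third WT or the third *Fmo5*-/- mouse (adjusted p from 0.00845 to 0.102 over 6 fits). *Adgre1*, which encodes F4/80, had 1.13 (SE 0.36, adjusted p = 0.151), and *Cd5l*, a secreted macrophage protein, had 1.25 (SE 0.24, adjusted p = 0.0564). *Cd5l* lies on chromosome 3 as well, 10.3 Mb from *Fmo5*.

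The sums of monocyte, neutrophil and T and NK cell markers were also higher without overlap, by 1.74, 2.41 and 2.75 times. *Plac8* gave 59.2% of the monocyte sum and *Csf3r* 61.8% of the neutrophil sum. Without them, a choice made after the values were seen, the ratios were 1.80 and 2.47, and the lowest *Fmo5*-/- neutrophil sum (119) was only just above the highest WT sum (116). The ratio of T and NK cell markers was 1.75 without the second *Fmo5*-/- mouse, whose sum of 946 stood above the 401 and 292 of the other two. Of 5 tested monocyte markers 4 overlapped between genotypes, *Plac8* among them. In edgeR 0 of 5 monocyte and 0 of 7 T and NK cell markers passed, with 2 and 4 at an unadjusted p under 0.05 and 1 and 3 called by DESeq2. Of 6 neutrophil markers *Ly6g*, *Mmp8* and *Retnlg* had too few counts to be tested, with *Ly6g* at 0 counts in 5 of 6 libraries and 1 count in the other. The 3 tested had an unadjusted p under 0.05, DESeq2 called 2, and 1 passed in edgeR, *Csf3r*, the receptor of a granulocyte growth factor (log2 fold change 1.25, adjusted p = 0.0468). With 1 mouse left out it passed only without the third *Fmo5*-/- mouse (adjusted p from 0.00438 to 0.134). The other 2 tested neutrophil markers, *S100a8* and *S100a9*, lie on chromosome 3, 6.96 and 6.94 Mb from *Fmo5*. The dendritic cell and B cell sums overlapped between genotypes at ratios of 1.35 and 1.37, and of 6 B cell markers 2 had an unadjusted p under 0.05 and 0 were called by edgeR or DESeq2. Of the 8 dendritic cell markers 7 had a positive log2 fold change, with a range from -0.12 to 1.47 and a median of 0.34, each overlapped between genotypes, and none passed in edgeR (1 at an unadjusted p under 0.05, 1 called by DESeq2). The lowest of them was *Siglech*, a marker of the plasmacytoid dendritic cells that use TLR7 and TLR9, which gave 12.7, 16.7 and 28.6 in WT and 12.1, 25.7 and 15.7 in *Fmo5*-/- mice. The sums overlapped too for sinusoidal endothelial cells (0.946), stellate cells (1.08) and cholangiocytes (1.01), and edgeR called none of their markers. The endothelial markers went both ways, with 4 of 8 at an unadjusted p under 0.05. Of these *Oit3*, *Fcgr2b* and *Bmp2* were below WT without overlap (log2 fold changes of -0.29, -0.44 and -0.58), *Stab2* was above it (0.23), and DESeq2 called *Fcgr2b* and *Bmp2* lower. Of the stellate cell markers 1 of 7 had an unadjusted p under 0.05, against 0 of 6 for cholangiocytes, and DESeq2 called neither list.

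Members were therefore also given per 1000 normalized counts of the 12 macrophage markers. On this scale *Tlr2* was at 5.49, 6.28 and 6.89 in WT and 8.96, 9.89 and 9.18 in *Fmo5*-/- mice, and remained higher without overlap, by 1.50 times (exact two-sided permutation p = 0.1, the smallest that 3 against 3 mice allow). Without *Marco*, the marker of the largest change, which was left out after its values were seen, the ratio was 1.58, and without *Cd5l*, left out likewise, it was 1.54 with no overlap. The third *Fmo5*-/- mouse, lowest in counts, was between the other two with all 12 markers, but was the lowest of its genotype without *Marco*, at 9.48 against 10.4 and 10.9. *Tlr2* was the only member of 10 above WT without overlap on this scale, as were 42 of all genes tested (0.251%).

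For 6 members the genotypes overlapped per macrophage marker count. *Tlr8* was at a ratio of 1.00, *Tlr1* at 0.915, *Cd14* at 0.908, *Tlr9* at 0.873, *Tlr4* at 0.744 and *Tlr3* at 0.568. Another 3 members were below WT without overlap, as were 73.2% of all genes tested on this scale, whose denominator was itself higher in *Fmo5*-/- mice. *Tlr7* was at 2.92, 2.79 and 2.80 in WT and 1.81, 1.74 and 2.05 in *Fmo5*-/- mice (0.658), and *Tlr6* was at a ratio of 0.633. *Tlr5* was at 34.9, 39.3 and 34.1 in WT and 13.1, 12.7 and 20.5 in *Fmo5*-/- mice (0.428), while its own counts overlapped between genotypes. The part of macrophages or of other leukocytes in the members' values was not tested.

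**Figure D4:**
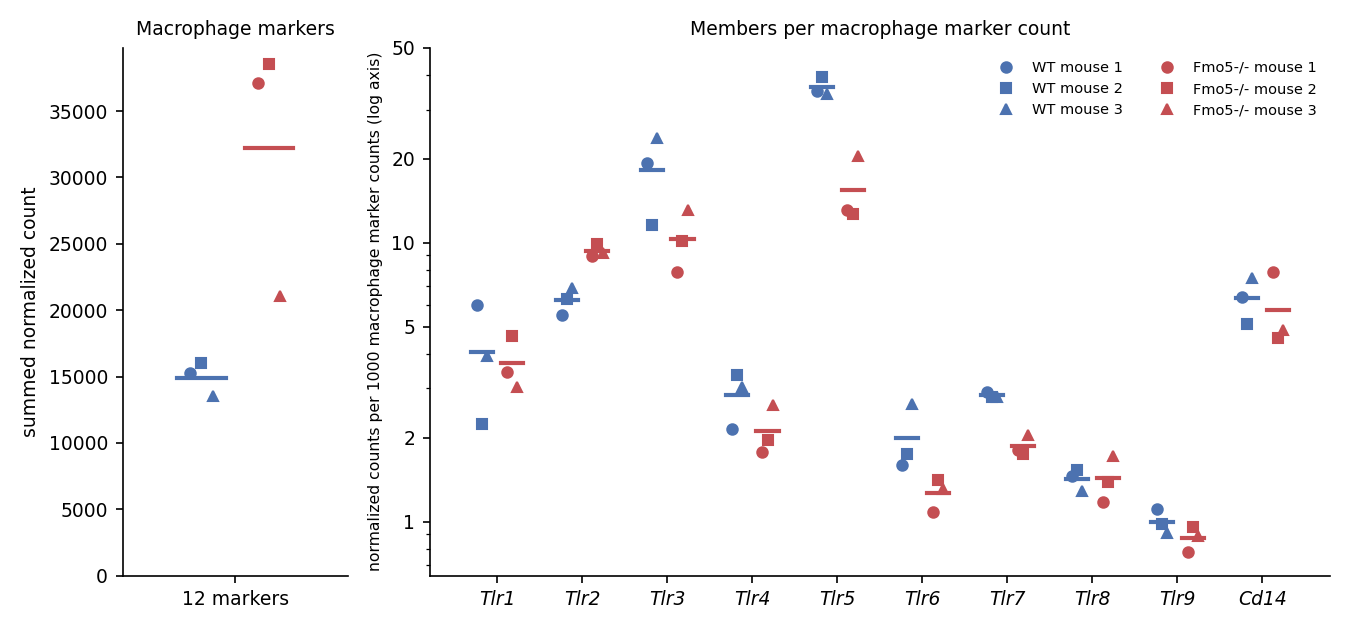
Left, summed normalized count of the 12 macrophage markers by mouse; right, each member per 1000 of these counts (log axis). WT mice are blue and Fmo5-/- mice red, with a bar at the mean of 3 mice. The marker sum ranges from 13513 to 15999 in WT and from 21077 to 38524 in Fmo5-/- mice, and on the right Tlr2 alone has its red points wholly above its blue points.

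The remaining genes of the pathway were read from 6 lists of 92 genes in all. The other mouse receptors, *Tlr11* to *Tlr13*, had 0 of 3 called by edgeR (1.37% of all genes) and 0 by DESeq2 (8.96% of all genes). An unadjusted p under 0.05 was found for 2 of them (21.8% of all genes). *Tlr11*, a receptor for profilin, gave 11.6, 11.2 and 14.3 normalized counts in WT and 22.4, 34.0 and 18.7 in *Fmo5*-/- mice, without overlap (log2 fold change 1.01, SE 0.33, adjusted p = 0.129). *Tlr13*, a receptor for bacterial ribosomal RNA, had 1.19 (SE 0.41, adjusted p = 0.139), and the value of the third *Fmo5*-/- mouse lay within the WT range. *Tlr12* was the highest of the 3 in counts and overlapped between genotypes (-0.33, SE 0.25, adjusted p = 0.486).

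Of 17 partners and accessory proteins 10 had an unadjusted p under 0.05 (21.8% of all genes). DESeq2 called 9 (8.96% of all genes), 7 higher, and *Hsp90b1* and *Cd36* lower. Of the 7, *Ctss* lies on chromosome 3 (chr3:95526786-95556403), as does *Fmo5*. The median log2 fold change of the list was 0.26 with 11 of 17 positive (50.8% of all genes). None was called by edgeR (1.37% of all genes). The nearest was *Unc93b1*, which carries the nucleic acid receptors to endosomes. It gave 1654, 1834 and 1758 normalized counts in WT and 2760, 2822 and 2130 in *Fmo5*-/- mice, without overlap (log2 fold change 0.56, SE 0.11, adjusted p = 0.0532). *Lbp*, which brings lipopolysaccharide to CD14, had 0.46 (SE 0.14, adjusted p = 0.109), and *Ly96*, the partner of TLR4 also called MD-2, had 0.26 (SE 0.15, adjusted p = 0.346). Of the folding factors of the receptors, *Hsp90b1* (gp96) had -0.61 (SE 0.14, adjusted p = 0.0637), with each *Fmo5*-/- mouse below each WT mouse, and edgeR without a filter on low counts also called it lower. *Cnpy3* had -0.10 (SE 0.09, adjusted p = 0.526). The lowest value of the list, chosen after it was seen, was that of the scavenger receptor *Cd36* (-1.34, SE 0.35, adjusted p = 0.114).

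The adaptors and kinases that lie directly below the receptors had the median nearest 0 of the lists. None of 21 was called by edgeR (1.37% of all genes), while 7 had an unadjusted p under 0.05 (21.8% of all genes). DESeq2 called 2, *Btk* higher and *Chuk* lower (8.96% of all genes). In this list 9 were positive (50.8% of all genes) and the median log2 fold change was -0.03. *Myd88* gave 615, 671 and 702 normalized counts in WT and 778, 728 and 672 in *Fmo5*-/- mice (log2 fold change 0.13, SE 0.10, adjusted p = 0.464), and *Ticam1* gave 608, 540 and 563 against 634, 599 and 649 (0.14, SE 0.09, adjusted p = 0.419). Both overlapped between genotypes. Without overlap, 2 of the 21 lay above WT and 4 below it, against 2325 above (13.9%) and 2253 below of all 16734 genes tested. The smallest p of this list was that of *Btk*, a kinase of B cells and myeloid cells (0.84, SE 0.22, adjusted p = 0.0818), and that of *Chuk*, a kinase of the complex that activates NF-kappaB, was close to it in the lower direction (-0.34, SE 0.09, adjusted p = 0.0852).

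Of 13 transcription factors 3 were called by edgeR, all higher, against 0.675% of all genes. In the same list 7 had an unadjusted p under 0.05 (21.8% of all genes), DESeq2 called 6 (8.96% of all genes) and 8 were above WT without overlap (13.9% of all genes). Of these 8, *Nfkb1* lies on chromosome 3, as does *Fmo5*. *Irf7*, the interferon regulatory factor used by TLR7 and TLR9, gave 1216, 1227 and 1442 normalized counts in WT and 2214, 2280 and 2078 in *Fmo5*-/- mice. The third *Fmo5*-/- mouse was close to the others of its genotype. Its log2 fold change was 0.76 (SE 0.09, adjusted p = 0.00872). *Irf5*, a factor of inflammatory cytokine genes in macrophages, rose by 0.72 on the log2 scale (SE 0.12, adjusted p = 0.0313), and *Relb*, a subunit of NF-kappaB, by 1.15 on that scale (SE 0.21, adjusted p = 0.0447). The median of the list was 0.25, with 11 of 13 positive. With 1 mouse left out, *Irf7* passed in 6 of 6 fits (adjusted p up to 0.04997). *Irf5* was lost without the first WT, the third WT or the first *Fmo5*-/- mouse (adjusted p up to 0.101), and *Relb* passed only without the third *Fmo5*-/- mouse (up to 0.131).

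Among 14 tested inhibitors of the pathway, 1 was called by edgeR, in the higher direction, against 0.675% of all genes. That inhibitor was *Trim30a*, a restraint on NF-kappaB signalling, with 0.84 (SE 0.16, adjusted p = 0.0468). In this list 6 had an unadjusted p under 0.05 (21.8% of all genes), DESeq2 called 5 (8.96% of all genes) and 6 were above WT without overlap (13.9% of all genes). The median of the 14 was 0.43, with 12 of 14 positive. Of 23 induced genes 16 could be tested and 2 were called by edgeR, both higher, against 0.675% of all genes. An unadjusted p under 0.05 was found for 10 (21.8% of all genes), and DESeq2 called 9 of the 16 (8.96% of all genes). *Icam1*, the adhesion molecule for leukocytes, gave 341, 383 and 371 normalized counts in WT and 900, 970 and 588 in *Fmo5*-/- mice, a log2 fold change of 1.17 (SE 0.18, adjusted p = 0.0262). *Ifit1*, an interferon-induced gene, rose by 0.79 on the log2 scale (SE 0.12, adjusted p = 0.0260). With 1 mouse left out, *Trim30a* and *Ifit1* passed only without the third *Fmo5*-/- mouse (adjusted p up to 0.133 and 0.0689), and *Icam1* only without the second or the third *Fmo5*-/- mouse (up to 0.105). Of the 16 tested genes, *Ccl4* and *Tnf* reached the minimum count of the filter in *Fmo5*-/- mice and in no WT mouse. They could thus be tested only with a positive value, and no median is given for this list. Both are counted among the 10 and the 9 above, which were fixed in part by the filter, and nothing is drawn from those counts. All WT mice reached the minimum for each of the 10 members.

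**Figure D5:**
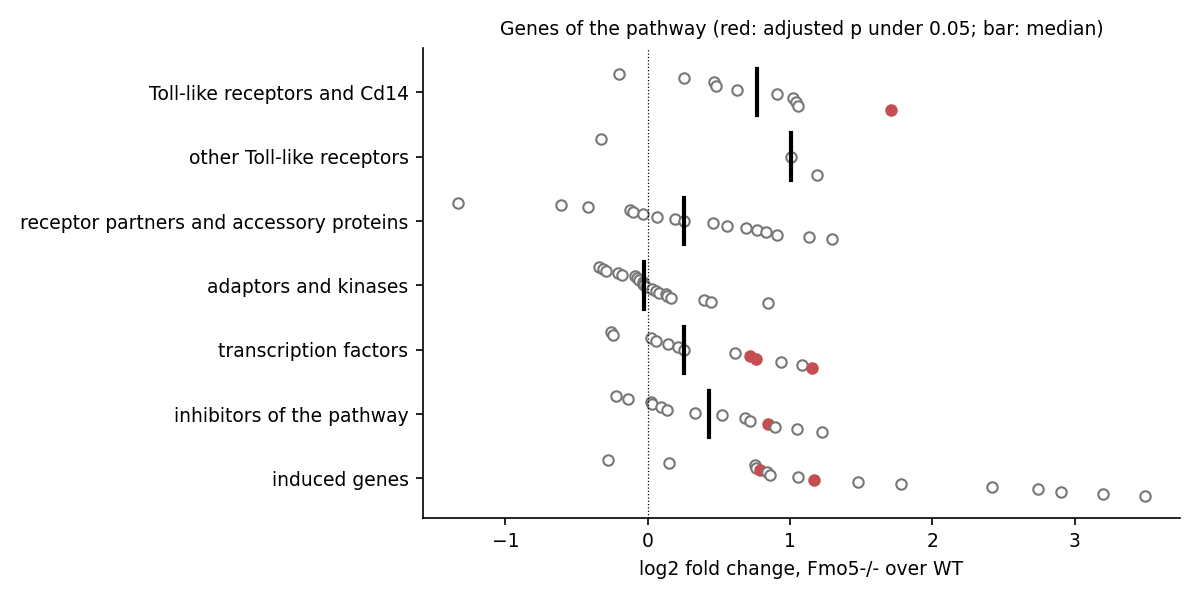
Log2 fold change (Fmo5-/- over WT) of the 10 members and of the tested genes of 6 lists of the pathway, with 1 circle per gene and a bar at the median of each list except the induced genes. Red circles passed an adjusted p of 0.05. The bar of adaptors and kinases is at -0.03 and that of the members at 0.77, and several induced genes with large values did not pass.

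The number of members called depended on the test. DESeq2 called 2 members, *Tlr2* and *Cd14* (log2 fold change 1.00, adjusted p = 0.0260), while calling 8.96% of all genes, and edgeR without a filter on low counts called 4, adding *Tlr1* and *Tlr8*, while calling 1989 of 34200 genes (5.82%). No setting called a member lower.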

How the data were processed

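The authors mapped single reads of 75 bases to mm10 with STAR and deposited raw counts per gene for each mouse, not separated by strand, which were used here. The authors also deposited a table of the same counts divided by 1 size factor per library (unit signal; checked against the counts and used for symbols), with columns of their own DESeq2 comparison. In these the authors give a log2 fold change with its error, a Wald test score and a p-value with its adjustment, and none was used. Between 45.5 and 53.6% of a member's counts lay on strand 1. The annotation release is not given in the sources used here. Rows that name no gene were left out, and 66.2 to 69.2% of reads lay on genes.

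Counts were fitted with edgeR 4.0.16 in R 4.3.3 (filterByExpr with a minimum count of 10, TMM, robust quasi-likelihood F test, two-sided, Benjamini-Hochberg over 16734 genes, 3 against 3 mice). The SE is the log2 fold change over the square root of F. The biological coefficient of variation was 15.0%. Alternatives were DESeq2 1.42.0, RLE size factors, TMM without the top 20 genes, no filter (at least 1 count), a mean normalized count of 500 or more before the fit, counts of 1 strand, other windows around Fmo5 and leaving out each mouse. The fit was tested on simulated counts. Positions were those of GENCODE vM21 (GRCm38), matched for 53229 identifiers; called shares by chromosome cover these genes. Promoters came from RefSeq.

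The members, the 6 lists of the pathway and the markers were chosen with earlier results of these data known. Genes named are the 10 members, Fmo5, every gene of a pathway list that passed or else its smallest p, the direct partners Ly96, Lbp, Unc93b1, Hsp90b1, Cnpy3, Myd88 and Ticam1, Tlr11 to Tlr13, the tested genes within 1 Mb of Tlr2, and Adgre1, Clec4f, Cd5l and Siglech. Apob, Csf3r, S100a8, S100a9, Plac8, Ly6g, Mmp8, Retnlg, Marco, Cd36, Ctss, Nfkb1 and Chuk were named after their values were seen. So were Ccl3, Ccl4, Tnf, Oit3, Fcgr2b, Bmp2, Stab2 and the genes of the closing section. Floors and intervals cover what these libraries show, and the floor of 3 counts covers counting error only.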

Additional observations from a re-analysis of the deposited data

How the results depend on the processing

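Directions of the 10 members were the same under every setting in which they were tested, and the limits are those of small counts and of 3 mice per genotype. No paired analysis was possible because the labels give no replicate numbers that tie a WT mouse to an Fmo5-/- mouse. Over all genes, 1395 were called by DESeq2, 1989 without a filter on low counts and 53 when genes below an average of 500 normalized counts were dropped, where Tlr5 alone of the members was tested. Members called were 2 with DESeq2 and 4 without a filter, and 0 with the limit of 500. Without the filter Tlr1 had a log2 fold change of 1.02 (adjusted p = 0.000942), Tlr8 1.04 (0.0273) and Cd14 1.00 (5.34e-05), and DESeq2 gave Cd14 1.00 (0.0260). Why the calls differ was not tested.

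Of the lists, other receptors had 1 call without a filter. Partners had 9 calls with DESeq2, 8 without a filter, 2 on 1 strand and 1 each with RLE factors and TMM without the top 20 genes. Adaptors and kinases had 2 with DESeq2 and 4 without a filter. Transcription factors had 6 and 5, inhibitors 5 and 6, and induced genes 10 and 7 under the same settings, and with the limit of 500 inhibitors had 0 and induced genes 1. Ccl3, Ccl4 and Tnf were among the calls of induced genes with DESeq2 and without a filter. Ccl3 had too few counts for the main fit and is not among the 9 of 16 tested genes called by DESeq2 above. Windows of 10 and 40 Mb around Fmo5 held 10 called of 315 tested genes (3.17%) and 28 of 599 (4.67%). The rest of chromosome 3 beyond 40 Mb held 11 of 265 (4.15%), against 1.18% on other chromosomes.

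With 1 mouse left out at a time, 31 to 763 genes were called in all, and 0 to 2 members. Calls ranged from 0 to 1 for other receptors, 0 to 6 for partners, 0 to 2 for adaptors and kinases, 1 to 5 for transcription factors, 0 to 3 for inhibitors and 0 to 7 for induced genes. The log2 fold change ranged from 0.67 to 1.47 for Tlr1, 1.51 to 1.95 for Tlr2, 0.05 to 0.41 for Tlr3, 0.48 to 0.83 for Tlr4, -0.30 to -0.079 for Tlr5, 0.20 to 0.68 for Tlr6, 0.38 to 0.66 for Tlr7, 0.91 to 1.18 for Tlr8, 0.67 to 1.13 for Tlr9 and 0.57 to 1.31 for Cd14. Only Tlr2 (2 of 6) and Cd14 (1 of 6) passed in any of these fits.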

Other observations

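Several genes induced by Toll-like receptors had larger log2 fold changes than Tlr2 and did not pass the test in edgeR with all mice, and they were chosen here after their values were seen. Ccl5, a chemokine that attracts T cells, gave 41.3, 27.9 and 29.7 normalized counts in WT and 154, 866 and 99.2 in Fmo5-/- mice (log2 fold change 3.50, SE 1.06, edgeR adjusted p = 0.158). The genotypes did not overlap, and the second Fmo5-/- mouse was far above the other two. Without it the log2 fold change of Ccl5 was 1.94 (SE 0.28, edgeR adjusted p = 0.0247), a fold of 3.83. The sum of T and NK cell markers was highest in the same mouse, at 401, 946 and 292 normalized counts in the 3 Fmo5-/- mice and 167 to 216 in WT, and among these markers Cd8a gave 22.2, 7.81 and 14.3 in WT and 86.6, 321 and 61.9 in Fmo5-/- mice. Their part in the value of Ccl5 was not tested. Saa3, an acute phase protein of macrophages, gave 249, 155 and 150.3 in WT and 721, 1659 and 592 in Fmo5-/- mice (2.42, SE 0.49, adjusted p = 0.0776), also without overlap and highest in the second mouse, without which the log2 fold change of Saa3 was 1.83 (adjusted p = 0.0221). Lcn2, which binds bacterial siderophores, gave 90.0, 206 and 50.1 in WT and 637, 1396 and 277 in Fmo5-/- mice (2.75, SE 0.84, adjusted p = 0.163), without overlap but with wide spread in both genotypes. The log2 fold change of Lcn2 was 1.99 without the second Fmo5-/- mouse (adjusted p = 0.342) and 3.46 without the second WT mouse (adjusted p = 0.232). With all mice, DESeq2 called Ccl5, Saa3 and Lcn2. The neutrophil chemokines Cxcl1 and Cxcl2 had 0.15 and -0.28 and overlapped between genotypes. Ifnb1, the interferon gene downstream of TLR3 and TLR4, was at 0 counts in all 6 libraries, and Il6 was at 4.24, 1.12 and 5.11 in WT and 2.79, 0 and 0.982 in Fmo5-/- mice, close to the floor of 2.75 to 3.35 normalized counts.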
